A study of Apis mellifera with 24 samples.

Results

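The genes GB54876, GB53587 and GB45793 held the most antisense piRNA reads of all 15313 annotated genes in honey bee (Apis mellifera) ovaries. They were selected on that measurement, as the genes ranked 1, 2 and 3 by antisense count in ovaries, so their ovary antisense counts and every antisense comparison with ovaries are given as a description. Their sense counts, and their antisense counts in eggs, testes, semen and spermatheca taken on their own, were not used to pick them. piRNAs are small RNAs bound by PIWI proteins, best known for silencing transposable elements (TEs) in animal germlines. Many are cut from long precursor transcripts of genomic regions called piRNA clusters, some of which give reads from a single strand and others from both. A read that is antisense to a gene lies on the strand opposite the annotated transcript and could pair with that transcript, whereas a sense read has the sequence of the transcript itself.

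Small RNA libraries were made from 5 reproductive tissues. The labels name no genetic change, and by the study's methods the virgin queens were exposed to CO2 to make them lay, so 4 of the 8 egg libraries came from treated queens. The sample labels list 3 libraries of ovaries, 3 of spermatheca, the sac that keeps the sperm a queen has received, and 2 of semen. They list 8 libraries of eggs collected less than 24 h after laying, of which 2 each were fertilised eggs of mated queens, unfertilised eggs of mated queens, virgin-queen eggs from worker cells and virgin-queen eggs from drone cells. The 8 testes libraries came from drone pupae 24 h (3 libraries), 72 h (2 libraries) and 144 h (3 libraries) after pupation, all from a single colony by the study's methods. By the study's methods, ovaries and spermathecae were dissected from the same group of naturally mated, laying adult queens. The methods give mature adult drones as the source of semen. The ovaries held developing eggs. The spermatheca of a mated queen holds stored sperm beside the queen's own tissue. The tables have a single pooled column for each tissue, so egg types and testes ages are merged and there is no spread between replicates. Every level below is therefore the authors' pooled value, and no difference between tissues has a replicate check or a p-value. The 24 libraries were sequenced on 4 flow cells. All ovary libraries shared a flow cell with 2 of the 3 spermatheca libraries, whereas eggs, testes and semen were on other flow cells. Tissue and flow cell therefore cannot be told apart in comparisons of ovaries with those 3 tissues. Both semen libraries shared a flow cell with 4 of the 8 egg libraries. The 8 testes libraries shared a flow cell with 1 spermatheca library. Carry-over of reads between tissues, on a shared flow cell or in dissection, was not tested. Small RNA counts do not measure the mRNA of marker genes, and the tissue labels could not be checked with them.

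Antisense counts over all genes summed to 3268356 in ovaries, 5045727 in eggs, 392409 in testes, 32551 in semen and 553655 in spermatheca. Semen thus had the smallest total, but GB54876 and GB45793 had their fewest antisense counts in testes. Shares are given with 95% Wilson intervals where the limits do not round to the value itself. Exact (Clopper-Pearson) 95% intervals are given for folds on 1 or 3 counts and for a ratio of counts in semen. Other ratios of counts within a tissue are printed without an interval. Both kinds describe counting error only, since pooling left no spread between libraries to measure. They also take every read as independent. Copies made by PCR were not told apart by molecular identifiers, so these and later intervals can be too narrow even for counting error. In bulk samples, fewer germline cells and less RNA per cell cannot be told apart.

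None of the 3 genes carried a RefSeq identifier in the tables, and none was found among the 12398 genes of the RefSeq table at hand, so they are called by their GB numbers and given no function. The lack of an identifier was common near the head of the ovary list. It held for 16 of the 20 genes with the most ovary antisense counts, against 3923 of all 15313 genes (25.6%). On the Amel 4.5 assembly, GB54876 lies on chromosome 6 (10226809 to 10229361, minus strand) and spans 2553 bp, close to the median gene span of 2649 bp. GB53587 spans 7472 bp on the unplaced scaffold GroupUn281 (42851 to 50322, plus strand). GB45793 spans 80026 bp on the unplaced scaffold GroupUn62 (37808 to 117833, minus strand), so that both larger genes lie outside the assembled chromosomes. Spans include introns. GB54876 and GB53587 lie wholly, and GB45793 for most of its length, within regions that the study lists as piRNA clusters.

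The drop in counts below the 3 genes was steep. GB53587 had 587617 ovary antisense counts and GB45793 had 566507, just inside the limit of 3 genes, whereas GB55024, ranked 4, had 186105 (5.69% of ovary antisense gene counts) and GB54360, ranked 5, had 107055 (3.28%). Allowing for length changed the order. Per kilobase of span, ovary antisense counts were 407860 for GB54876, 78643 for GB53587 and 7079 for GB45793. GB54876 was still ranked 1 of all genes on this scale, but GB53587 was ranked 6 and GB45793 was ranked 18.

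**Figure D1:**
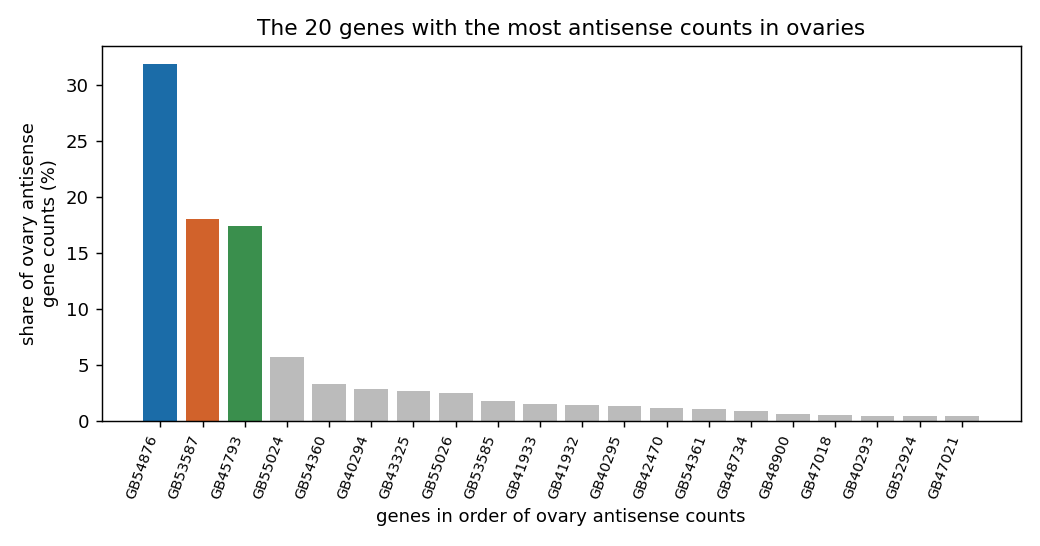
Share (%) of all ovary antisense gene counts held by each of the 20 genes with the most such counts, as bars from the authors' pooled ovary column, with GB54876, GB53587 and GB45793 in colour and the other genes in grey. The bars of the 3 coloured genes stand at 31.9%, 18.0% and 17.3%, and the next gene, GB55024, at 5.69%.

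The same 3 genes led the egg column, which the selection did not use. The ovaries held developing eggs, so the 2 columns cover overlapping kinds of material, and their likeness is not read as a check on the selection. The 3 genes were ranked 1, 2 and 3 by antisense count in eggs as in ovaries. Together they held 66.8% of egg antisense gene counts beside 67.2% in ovaries. In spermatheca they were ranked 2, 4 and 3 and held 36.3% (36.2 to 36.4). The testes and semen columns differed from these. The combined share was 7.97% (7.89 to 8.06) in testes and 1.31% (1.19 to 1.43) in semen, where 425 of 32551 antisense counts fell on the 3 genes. A different gene, GB43331, led testes, semen and spermatheca, with 33.2%, 54.0% and 38.4% of antisense gene counts. Its share lowers that of every other gene there, and without it the 3 genes held 58.9% in spermatheca, 11.9% in testes and 2.84% in semen. Their combined sense share was far smaller in each tissue, at 7.94% in ovaries, 7.47% in eggs, 2.95% in spermatheca, 0.146% in testes and 0.0264% in semen. In ovaries a smaller sense share follows in large part from the selection by antisense counts. GB45793 alone held 7.79%, 7.41%, 2.88% and 0.0256% in ovaries, eggs, spermatheca and semen, and GB53587 alone 0.140% in testes.

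**Figure D2:**
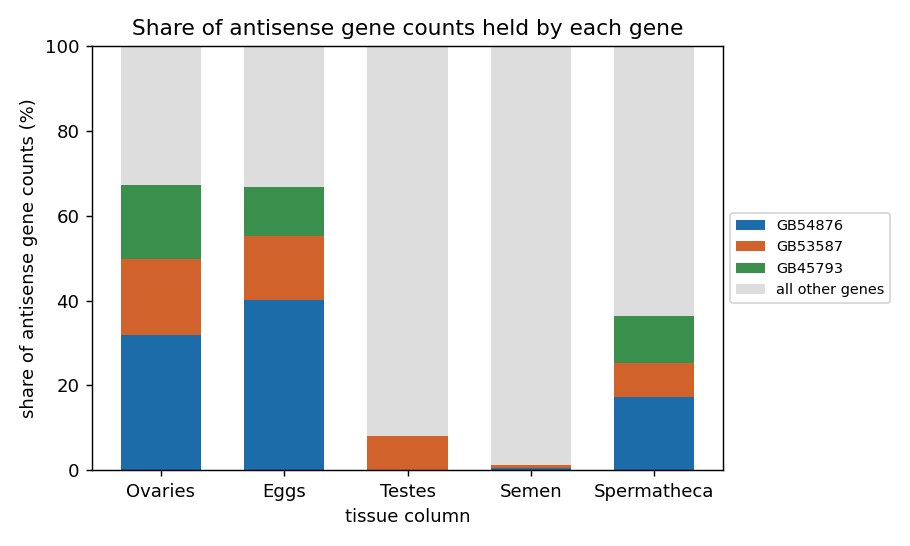
Stacked bars of the share (%) of antisense gene counts held by GB54876, GB53587, GB45793 and all other genes in the pooled column of each of 5 tissues. The 3 genes together fill 67.2% of the ovary bar, 66.8% of the egg bar and 36.3% of the spermatheca bar, and in testes the 7.97% is nearly all GB53587.

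GB54876 had most of its reads in eggs, ovaries and spermatheca and next to none in testes. Its antisense counts were 1041278 in ovaries, 2029357 in eggs, 95291 in spermatheca, 194 in semen and 28 in testes. Its share of antisense gene counts was highest in eggs, at 40.2% (40.2 to 40.3), above ovaries at 31.9% and spermatheca at 17.2% (17.1 to 17.3). The share was 0.596% (0.518 to 0.686) in semen and 0.00714% (0.00494 to 0.0103) in testes. No neighbours in this order overlapped in their counting intervals. The testes column held more antisense gene counts in all than semen but fewer of GB54876, which was ranked 227 there and 6 in semen.

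GB53587 was the only one of the 3 with abundant reads in testes. Its antisense counts were 587617 in ovaries, 761942 in eggs, 31241 in testes, 44182 in spermatheca and 174 in semen. It was ranked 2 in ovaries, eggs and testes, 4 in spermatheca and 7 in semen. As a share of antisense gene counts it was highest in ovaries, at 18.0%, followed by eggs at 15.1%. Spermatheca, at 7.98% (7.91 to 8.05), and testes, at 7.96% (7.88 to 8.05), overlapped in their counting intervals, and semen stood lowest at 0.535% (0.461 to 0.620). The order depended on the denominator. As a share of gene plus TE counts, GB53587 was highest in testes, at 1.48%, above 0.916% in ovaries, 0.768% in eggs and 0.593% in spermatheca, and as a share of sense plus antisense gene counts testes, at 3.28%, stood above spermatheca, at 3.12%.

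GB45793 followed GB54876 in being nearly absent from testes. It had 566507 antisense counts in ovaries, 581489 in eggs, 61609 in spermatheca, 57 in semen and 24 in testes. Its share was 17.3% in ovaries, 11.5% in eggs, 11.1% in spermatheca, 0.175% (0.135 to 0.227) in semen and 0.00612% (0.00411 to 0.00910) in testes. Without GB43331 in the denominator its highest share was in spermatheca. The counting intervals of GB45793 and GB54876 overlapped in testes, and those of GB54876 and GB53587 overlapped in semen.

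**Figure D3:**
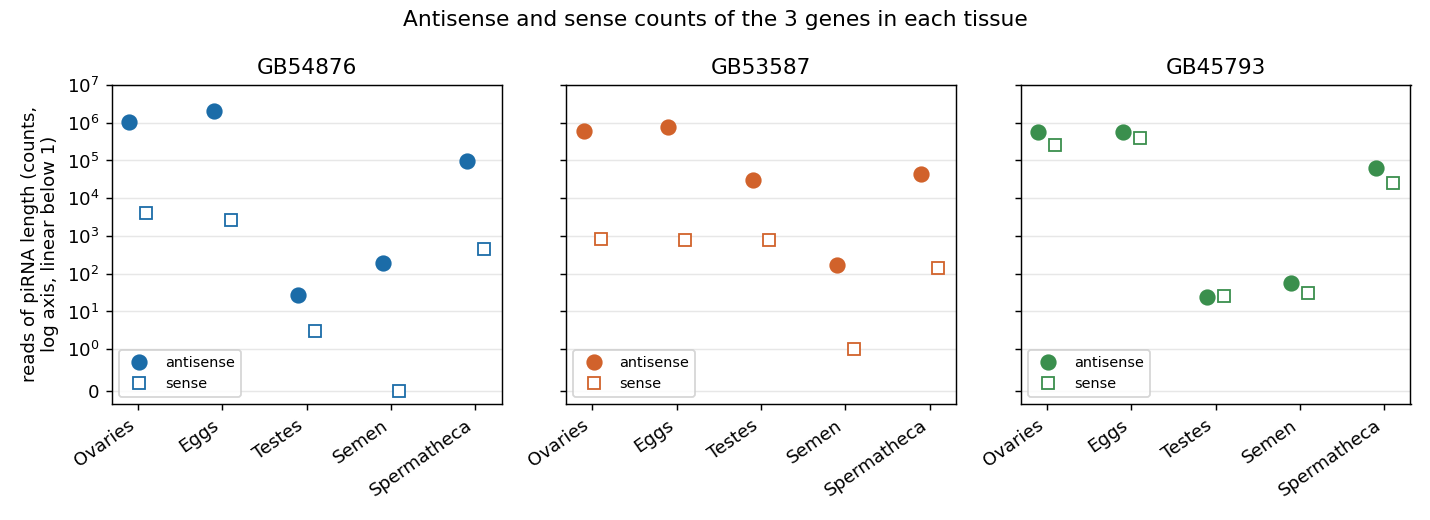
Antisense (filled circles) and sense (open squares) counts of GB54876, GB53587 and GB45793 in the authors' pooled column of each tissue, on a log axis that is linear below 1, with no error bars because each tissue has a single column. GB53587 stands at 31241 antisense counts in testes where the other genes stand at 28 and 24, and only GB45793 has sense counts close to its antisense counts.

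The 3 genes did not keep the same proportions from tissue to tissue. Ratios between genes within a column do not depend on how columns are scaled, and a ratio of a pair in one tissue over that in ovaries does not depend on gene length. Per kilobase, GB54876 held 5.19 times the antisense counts of GB53587 in ovaries, 7.80 times in eggs, 6.31 times in spermatheca and 3.26 times in semen. Before allowing for length, the semen ratio was 1.11 (0.904 to 1.38) on 194 and 174 counts, an interval that holds 1. In testes the order turned round. Set against their ratio in ovaries, GB53587 had gained on GB54876 by 1977-fold (1365 to 2864) in testes, and GB53587 had gained on GB45793 by 1255-fold (841 to 1873). GB54876 and GB45793 did not separate there, since the ratio of GB54876 to GB45793 in testes was 0.635 times that in ovaries (0.368 to 1.09), on 28 and 24 counts. The ovary counts in these ratios are those that picked the genes, and each interval is a normal approximation on the log scale for counting error.

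Between ovaries and eggs the shifts were modest but in a fixed order. Relative to ovaries, the ratio of GB54876 to GB45793 in eggs was 1.90 times as high (1.89 to 1.91), that of GB54876 to GB53587 was 1.503 times as high (1.497 to 1.509), and that of GB53587 to GB45793 was 1.26 times as high (1.26 to 1.27). Eggs thus held relatively more of GB54876 and less of GB45793. Spermatheca moved differently. There the ratio of GB53587 to GB45793 was 0.691 times that in ovaries (0.683 to 0.700), and that of GB54876 to GB45793 was 0.841 times (0.833 to 0.850). In semen, GB45793 was the member with the lowest level relative to ovaries, with GB53587 over GB45793 at 2.94 times its ovary ratio (2.18 to 3.97) and GB54876 over GB45793 at 1.85 times (1.38 to 2.49).

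Differences between tissues for single genes were computed after TMM scaling of each pair of columns, which sets the scale so that most genes are unchanged, with a minimum of 5 counts in 1 of the columns, and a gene was counted as different above 5-fold. All 4 comparisons use the same ovary column. None of the 3 genes passed 5-fold between ovaries and eggs in antisense counts, where 1.78% of 1121 genes passed towards ovaries and 2.23% towards eggs. GB54876 was 1.72-fold higher in eggs and GB53587 1.14-fold higher in eggs, while GB45793 was 1.10-fold higher in ovaries. The directions of GB53587 and GB45793 depended on the scale. GB53587 was 1.19-fold higher in ovaries with column totals, and GB45793 was 1.03-fold higher in eggs with unscaled counts. The median log2 fold of the 3 genes, ovaries over eggs, was -0.20, beside -0.04 over all genes tested.

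All 3 genes passed 5-fold towards ovaries against testes, semen and spermatheca. The share of all genes doing so was 17.4% of 1793 against testes, 16.9% of 1012 against semen and 17.8% of 1615 against spermatheca, and since ovary antisense counts picked the genes nothing is read from these counts. Ovaries exceeded testes by 60353-fold for GB54876 and 38308-fold for GB45793 but by 30.5-fold for GB53587. Against semen the folds were 1412, 888 and 2614 for GB54876, GB53587 and GB45793, and against spermatheca 12.9, 15.7 and 10.9. The median log2 fold of the 3 genes was 15.23 against testes, 10.46 against semen and 3.69 against spermatheca, beside -0.04, 0.66 and -0.49 over all genes tested.

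Scaling by the column totals instead of TMM lowered these folds. The 3 genes themselves make up 67.2% of the ovary antisense total, and their part in the lower folds was not tested. Ovaries then exceeded testes by 4465-fold for GB54876, 2834-fold for GB45793 and 2.26-fold for GB53587, which no longer passed 5-fold, with 2.79% of all genes over 5-fold higher in ovaries. Against spermatheca the folds became 1.85, 2.25 and 1.56 for GB54876, GB53587 and GB45793, and none of the 3 passed, with 0.248% of all genes over 5-fold higher in ovaries. With TMM on genes with at least 50 counts none of the 3 passed against spermatheca either, beside 1.17% of the genes tested. Against semen all 3 still passed, at 53.5-fold, 33.6-fold and 99.0-fold, with 3.95% of all genes over 5-fold higher in ovaries.

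Sense counts, which played no part in the selection, were a small part of the reads of GB54876 and GB53587 and a large part of those of GB45793. GB54876 had 3986 sense counts in ovaries, 2715 in eggs, 441 in spermatheca, 3 in testes and 0 in semen. GB53587 had 812 in ovaries, 774 in eggs, 788 in testes, 140 in spermatheca and 1 in semen. GB45793 had 254127 in ovaries, 404561 in eggs, 24844 in spermatheca, 30 in semen and 26 in testes. GB45793 was ranked 3 of all genes by sense count in ovaries and in eggs and 7 in spermatheca, whereas GB54876 was ranked 18, 25 and 67 and GB53587 was ranked 55, 63 and 196. The 0 of GB54876 in semen was among 117292 sense gene counts.

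After TMM scaling of the sense counts, none of the 3 genes passed 5-fold between ovaries and eggs, where 1.5% of 4342 genes passed towards ovaries and 0.668% towards eggs. GB54876 and GB45793 passed towards ovaries against testes, where 10.4% of 5962 genes did, at 1973-fold (675 to 9573) on the 3 testes counts of GB54876 and 14516-fold for GB45793. GB53587 differed by 1.53-fold only. All 3 genes passed against semen, where 9.08% of 3942 genes did, by at least 530-fold for GB54876, with its semen count of 0 set to a floor of 3 counts, by 324-fold (58.0 to 12808) for GB53587 on its single semen count, and by 3379-fold for GB45793. All 3 also passed against spermatheca, where 9.72% of 5800 genes did, at 17.7-fold, 11.4-fold and 20.02-fold. With column totals in place of TMM, a choice made after seeing the data, GB53587 was 5.64-fold higher in testes than in ovaries by sense counts, the opposite direction, on a scale where 68.4% of all genes were over 5-fold higher in testes. None of the 3 then passed against spermatheca, where 0.414% of all genes were over 5-fold higher in ovaries.

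The direction of the reads was nearly fixed in GB54876 and GB53587. Antisense reads made up 99.6% of the GB54876 counts in ovaries, 99.9% in eggs, 99.5% in spermatheca, 100% (98.1 to 100) of 194 counts in semen and 90.3% (75.1 to 96.7) of 31 counts in testes. For GB53587 they made up 99.9% in ovaries and in eggs, 99.7% in spermatheca, 99.4% (96.8 to 99.9) in semen and 97.5% (97.4 to 97.7) in testes. Reads of GB54876 therefore lay on the plus strand of the genome and those of GB53587 on the minus strand. For the summed counts of all genes the antisense share was 50.05% in ovaries, 48.0% in eggs, 41.2% in testes, 21.7% in semen and 39.1% in spermatheca. The 3 genes weighed heavily in that sum, and without them it was 26.3% in ovaries, 24.9% in eggs and 29.6% in spermatheca. The median antisense share of a gene was 7.12% over the 376 genes with at least 100 counts in ovaries and 4.24% over 443 such genes in eggs. Since high ovary antisense counts selected the 3 genes, a high antisense share in ovaries follows in large part from the selection, and nothing is read from its distance to the median.

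GB45793 had reads on both strands. Its antisense share was 69.0% (68.9 to 69.1) in ovaries, 59.0% (58.9 to 59.1) in eggs and 71.3% (71.0 to 71.6) in spermatheca. It was 65.5% (55.1 to 74.7) on 87 counts in semen and 48.0% (34.8 to 61.5) on 50 counts in testes. The egg share stood 10 percentage points below that of ovaries, outside the counting intervals. The ovary interval lay inside that of semen, and in testes the interval held 50%.

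**Figure D4:**
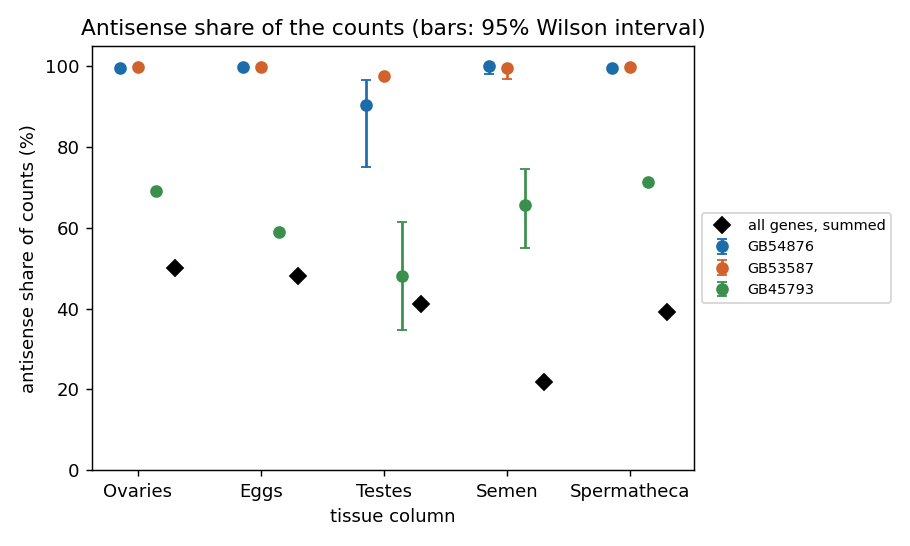
Antisense share (%) of the counts of GB54876, GB53587 and GB45793 in each pooled tissue column, with 95% Wilson intervals for counting error, and the same share over the summed counts of all genes (black diamonds). GB54876 and GB53587 lie at 97.5% or above except GB54876 in testes, at 90.3% on 31 counts, whereas GB45793 lies between 48.0% and 71.3%.

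The surroundings of the 3 genes differed. The 3 genes on either side of GB54876 on chromosome 6, the nearest 13.6 kb away, all had fewer than 100 counts in every tissue. Farther along the chromosome, 183 kb after GB54876, GB52924 on the plus strand was ranked 19 in ovaries. GB52924, named after its values were seen, had 12652 antisense counts in ovaries, 10595 in eggs and 0 in testes. GroupUn281 carries 4 genes, and the others lie 24.4 to 40.1 kb before GB53587. GB53585, on the minus strand, had 55808 antisense counts in ovaries, 63478 in eggs, 19520 in testes, 5441 in spermatheca and 40 in semen. Like GB53587, GB53585 had abundant antisense reads in testes. Its reads lay on the other genome strand, however, with 86.8% on the plus strand in ovaries and 96.3% in testes. GB53586 lies on the plus strand and had 6572 sense counts and 1439 antisense counts in ovaries, so that 82.0% of its reads were on the plus strand too. GB53584 also lies on the minus strand. In ovaries it had 1014 antisense counts and 828 sense counts, and in testes 1305 and 72.

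GroupUn62 carries just 1 further gene. GB45794, 13.4 kb from GB45793 and on the plus strand, had 26993 sense counts in ovaries, 17086 in eggs, 3035 in spermatheca, 4 in semen and 3 in testes. It had 2 antisense counts in ovaries and 0 elsewhere. Its reads thus came from the plus strand, the strand of the antisense reads of GB45793, and were as rare in testes.

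The TEs annotated within the genes were compared next, since piRNAs are best known for silencing TEs. A read on a TE inside a gene can be counted in both the gene and the TE tables. No annotated TE overlapped GB54876. GB53587 overlapped 7 TEs, all of class II (DNA transposons), over 23.1% of its span, and each fragment lay in the direction of the gene. Most are families with fragments elsewhere, and their counts cannot be assigned to the gene. AMARI, a Tc1-Mariner family with 103 fragments of which 1 lies in GB53587, had 322679 antisense counts in ovaries, CRMAR, of the same superfamily, had 86175 over 58 fragments, and piggyBac-11_SM had 19210 over 6 fragments. The reads of these families were mostly antisense to the TE, at 99.8%, 98.6% and 99.9% in ovaries. Only ms46346 and ms46355 lie wholly inside GB53587. Together they carried 14374 of its antisense counts in ovaries, which is 2.45% of the counts over 7.07% of the span, and 3.97% in eggs, 2.48% in testes and 3.09% in spermatheca.

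GB45793 held more TEs but over less of its span. It overlapped 14 TEs (7 of class I, the retrotransposons, 6 of class II and 1 with no class), of which 11 lay wholly inside and covered 4.91% of the span. These 11 carried 98344 of its antisense counts in ovaries, 90030 in eggs and 14139 in spermatheca, which is 17.4%, 15.5% and 23.0% of them. They carried a much smaller part of its sense counts, 2.18% in ovaries, 1.64% in eggs and 1.83% in spermatheca. Leaving the 11 TEs out, 65.3% of the ovary reads of GB45793 were still antisense, as were 55.3% in eggs and 66.1% in spermatheca.

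A single element accounted for most of these antisense reads. ms42023, a class II element of 802 bp that covers 1.0% of the span, carried 78547 counts antisense to GB45793 in ovaries, 67663 in eggs, 12699 in spermatheca, 13 in testes and 8 in semen. That was 13.9% of the antisense counts of the gene in ovaries, 11.6% in eggs and 20.6% in spermatheca, and 13 of 24 in testes. The element lies on the plus strand, opposite to the gene, so its reads were antisense to the gene but almost all sense to the element, with 174 counts antisense to the element in ovaries. Close to it, ms42033, a class I element of 532 bp in the direction of the gene, carried 18458 antisense counts in ovaries and 20356 in eggs, antisense to both gene and element. SMAR17, which has 1 of its 3 fragments in GB45793, had 40760 counts antisense to the element in ovaries, and these cannot be assigned to the gene.

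The TEs along GB45793 differed in direction. Of the 11 TEs, 8 had at least 100 ovary counts. The 3 with mostly sense counts lay 12.5, 13.2 and 29.3 kb from the start of the gene, and the 5 with mostly antisense counts lay 44.0 to 76.5 kb from it. The element at 44.0 kb was mixed, with 165 antisense and 75 sense counts in ovaries and 9 and 12 in spermatheca. Below 100 counts, an element at 18.0 kb departed from the split, with 44 antisense and 5 sense ovary counts. Those at 4.95 and 7.5 kb had 0 antisense counts. Among the sense-leaning elements, ms42024 had 2634 sense counts and 1 antisense count in ovaries, and ms42016 had 2222 and 63. The TEs sample a small part of the span and the rest of it could not be resolved by position.

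**Figure D5:**
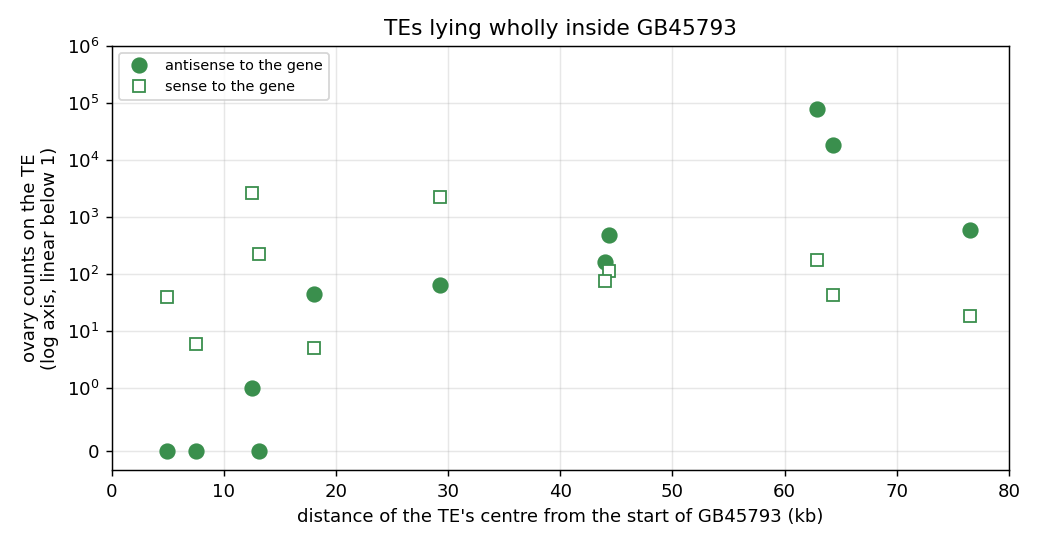
Ovary counts antisense (filled circles) and sense (open squares) to GB45793 on each of the 11 TEs lying wholly inside it, against the distance in kb of the TE's centre from the start of the gene, on a log count axis that is linear below 1. Of the 8 elements with at least 100 counts, the 5 with mostly antisense counts lie 44.0 to 76.5 kb from the start, led by ms42023 with 78547, and ms42024 and ms42016 with mostly sense counts lie at 12.5 and 29.3 kb.

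The genes whose antisense pattern over the 5 tissues was most like that of each of the 3 were found by the Euclidean distance of log10 counts (3 added), centred on each gene's own mean, among 136 genes with at least 100 antisense counts in ovaries. This is a description over 5 pooled columns, which all genes share. GB54360 on chromosome 16 (2088357 to 2089989, plus strand) was nearest to GB54876, at a distance of 0.0712. It had 107055 antisense counts in ovaries, 203585 in eggs, 8199 in spermatheca, 18 in semen and 0 in testes. GB54876 had 9.73 times as many in ovaries, 9.97 times in eggs, 11.6 times in spermatheca and 10.8 times in semen. The semen ratio rests on 18 counts of GB54360, and no ratio was formed in testes, where GB54360 had 0 and GB54876 had 28. A small distance selects genes in near-constant proportion, so these ratios are not read as a result. The next nearest to GB54876 were GB45793 (0.419) and GB42470 (0.462).

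The other patterns had no match as close. For GB53587 the nearest were GB55026 (0.280), GB40294 (0.321) and GB42002 (0.340), each with antisense reads in testes, at 9144, 2437 and 1140 counts. Their ovary counts were 99.6%, 100% and 99.8% antisense. The testes counts entered the distance, and the minimum of 100 ovary antisense counts favours a high antisense share. Neither trait is therefore read as a result. For GB45793 the nearest were GB42470 (0.295), GB54876 (0.419) and GB48734 (0.461). GB42470 had 35860 antisense counts in ovaries, 51401 in eggs and 0 in testes, and GB48734 had 26853, 31428 and 0. Unlike GB45793, both were almost wholly antisense, at 96.3% and 100% of their ovary counts, under the same limit of the filter.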

How the data were processed

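The authors mapped small RNA reads to the Amel 4.5 assembly, took out those belonging to other classes of RNA or outside the piRNA length range, and obtained sense and antisense counts of genes and TEs with featureCounts of Rsubread. The labels' processing notes also name Bowtie 1.2.3, with no role. The deposited values are raw counts in 4 tables, with 1 pooled column per tissue. How libraries were combined, and how multi-mapping reads were treated, is not given in the sources used here. The methods describe semen from 3 colonies where the labels list 2 libraries, and 2 testes libraries for each time point where the labels list 3, 2 and 3.

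Counts were used as deposited. Shares, 95% Wilson intervals, exact intervals of ratios and pattern distances were computed with SciPy 1.17.1, numpy 2.4.6 and pandas 2.3.3 (Python 3.11.15). Folds were computed in R 4.3.3 from TMM factors of edgeR 4.0.16 for each pair of columns. The step was also run on simulated columns, both drawn from the ovary proportions with a balanced set of changed genes. The real columns differ more than that, so the simulation does not test the folds given here. A count under 3 was set to 3, making the fold a lower bound (the fold on a single count is printed as observed), and no fold was given where both counts were 3 or fewer. A quasi-likelihood test was planned for replicate columns and could not be run. Folds are given for the pairs with ovaries. Column totals are sums of gene counts in a direction, not sequencing depth, and the sum over genes and TEs ran from 283610 in semen to 99262537 in eggs. Alternatives were column totals, size factors of DESeq2 1.42.0, unscaled counts, TMM of both directions together, other count minimums and other denominators.

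The genes and the comparisons were chosen with earlier results of these data known. The genes named are the 3 genes, those ranked 4 and 5, GB43331 where a share turns on it, up to 3 neighbours on each side with at least 100 counts in a tissue, the 3 nearest patterns to each gene, and up to 3 TEs per gene with the most ovary counts. ms46346, ms46355, ms42024, ms42016 and GB52924 were named after their values were seen. No sequences are shown.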

Additional observations from a re-analysis of the deposited data

How the results depend on the processing

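No paired analysis was possible because the tables hold pooled columns, and leaving out replicates was not run for the same reason. Depth limits the shares in semen, with 32551 antisense gene counts, and the values of GB54876 and GB45793 in testes, with 28 and 24 antisense counts. Of the 12 antisense folds of the 3 genes between ovaries and another tissue, all kept their direction and their side of 5-fold with DESeq2 size factors, with TMM of both directions and with no filter, 11 did with unscaled counts, 9 with a minimum of 50 counts and 7 with column totals, and none turned round where the fold was over 5. The number of the 3 genes higher in ovaries than in spermatheca fell from 3 to 0 with column totals and to 0 with a minimum of 50 counts. By sense counts, with column totals (chosen after seeing the data), it fell from 3 to 0, and 1 of the 3 genes instead of 0 was higher in testes than in ovaries, GB53587 at a log2 fold of -2.50 in place of 0.61. Column totals moved every antisense log2 fold by 0.45 against eggs, -3.76 against testes, -4.72 against semen and -2.81 against spermatheca.

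The combined share in ovaries, eggs, testes, semen and spermatheca became 33.6%, 32.1%, 3.28%, 0.284% and 14.2% of sense plus antisense gene counts. It became 67.2%, 66.9%, 11.9%, 2.84% and 58.9% without GB43331, and 3.42%, 3.40%, 1.49%, 0.150% and 2.70% of gene plus TE counts.

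Over all genes, antisense counts over 5-fold higher in ovaries than in eggs numbered 20, or 35 with column totals and 7 with a minimum of 50 counts, and those higher in eggs 25, or 14 and 9. Against testes, 312 genes were higher in ovaries, or 50 and 104 with these settings, and 84 in testes, or 1275 with column totals and 176 unscaled. Against semen, 171 genes were higher in ovaries, or 40 with column totals, 382 unscaled, 293 with no filter and 34 with a minimum of 50 counts, and 132 in semen, or 284, 20, 39 and 30. Against spermatheca, 288 genes were higher in ovaries, or 4 with column totals and 3 with a minimum of 50 counts, and 102 in spermatheca, or 974 with column totals and 43 with TMM of both directions.

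Where column totals or unscaled counts change a number, the scale of the columns is by construction what changed. The nearest patterns of the 3 genes were the same with a minimum of 1000 ovary antisense counts. By Pearson correlation, 2 of the 3 nearest remained for GB54876, 0 for GB53587 and 1 for GB45793.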
